A study of Rattus norvegicus with 32 samples.

Results

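The comparison described here is that of formerly iron-deficient (FID) with always iron-sufficient (IS) male rats without choline supplementation, sequenced in batch I. The 8 libraries, 4 of each group, were chosen by diet, sex and batch as the labels give them, out of 32 hippocampal RNA-seq libraries in the series. The other libraries are males of batch I whose dams received choline (FIDch and ISch), and females of these diets, all in batch II. The question was which transcripts of the adult hippocampus still differ long after an early iron deficiency has ended.

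All 8 animals were Sprague-Dawley males of postnatal day 65 (P65), and a single male was taken per litter. Dams of the FID group, whose diet is labelled ID, ate a diet with 4 mg/kg iron from early gestation into the first postnatal week and an iron-sufficient diet afterwards, whereas dams of the IS group ate 200 mg/kg iron throughout. Both groups therefore had iron-sufficient food from the end of that week until P65, and both had 1.1 g/kg choline in the maternal diet. Each library is 1 hippocampal RNA sample of 1 rat, so that the model is a nutritional one with no genetic change, and every difference given here is one of bulk tissue, in which fewer cells of a type and less RNA per cell cannot be told apart.

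Iron is a cofactor of the respiratory chain, of enzymes that make monoamines, and of the dioxygenases that demethylate histones and DNA. Cells that lack iron stabilise the messenger RNA of transferrin receptor and repress the translation of ferritin through the iron regulatory proteins, one of which is encoded by Ireb2. The fetal and neonatal hippocampus grows its dendrites and synapses while its demand for iron is high, and early iron deficiency is known for lasting effects on learning and memory.

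The libraries held 6655242 to 9511611 counts on genes, and a count of 0 allowed up to 0.315 to 0.451 CPM (counts scaled to the size of the library), for counting error alone. Between 17789 and 18201 genes had at least 1 count. Of the hippocampal markers, Prox1 of dentate granule cells lay at 89.7 to 145 CPM, Wfs1 of the CA1 field at 343 to 432 CPM and Cpne4 of the CA3 field at 253 to 332 CPM. A list of 8 striatal markers summed to 164 to 180.4 CPM, with overlapping groups. One of 7 thalamic markers summed to 33.3 to 36.65 CPM in the FID and 36.73 to 37.8 CPM in the IS libraries, every FID library narrowly below every IS library, with 0 of 6 tested markers at the criterion, and the part of this in other results was not tested.

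A pair of libraries stood apart. FID replicate 4 carried transcripts of the choroid plexus, described below with Ttr. IS replicate 1 was the lowest of the 8 libraries in 234 of the 324 genes that were higher in FID (72.2%), against 22.8% of all genes tested, and the highest in 178 of the 316 genes that were lower in FID (56.3%), against 25.3% of all genes. Counts that change with either library are given with and without it, and list genes that lost the criterion without one of them are named after the lists.

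Differences between the groups were small, and no gene passed an adjustment over all genes in the main test. The criterion used here, after the study's, was an absolute log2 fold change over 0.2 together with an unadjusted p under 0.05 in edgeR's quasi-likelihood test. It was met by 640 of 13851 genes (4.62%). Among them, 324 were higher in FID (2.34%) and 316 lower (2.28%). With Benjamini-Hochberg adjustment over all genes, 0 genes passed 0.05 in edgeR's test, 787 genes (5.68%) had an unadjusted p under 0.05, and DESeq2 gave 2 genes with an adjusted p under 0.05. In the following, "higher" and "lower" of a single gene without further remark mean that it met the criterion.

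The count depended on single libraries. It was 392 without IS replicate 1 (2.82% of the genes tested then, 1.35% higher and 1.47% lower), 441 without FID replicate 4 (3.18%, 1.65% higher and 1.53% lower) and 341 without both, but 1236 without IS replicate 3 (8.79%). Of the 640 genes, 276 also met the criterion without IS replicate 1 and 340 without FID replicate 4. In 161 genes, 79 of them higher in FID, the criterion was met with all 8 libraries and with each library left out in turn. The 4 FID values did not overlap the 4 IS values in 498 genes (3.6%), 256 higher (1.85%) and 242 lower (1.75%). Such a separation has an exact 2-sided permutation p of 0.0286, the smallest that 4 against 4 rats allow.

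Among genes with a unique gene symbol (clone names such as AABR and AC left out), at a mean of at least 5 CPM and without overlap between the groups, the one that fell most was Ifi27, an interferon-inducible gene whose product is a small mitochondrial membrane protein. It was measured at 49.8, 33.2, 32.6 and 27.2 CPM in FID replicates 1 to 4 and 76.1, 69.5, 50.9 and 80.2 CPM in IS replicates 1 to 4. Every FID library was below every IS library, although FID replicate 1 and IS replicate 3 were close. The log2 fold change was -0.96 ± 0.18 (SE), or -48.6% (edgeR adjusted p = 0.786, the value of all 24 genes with the largest differences), and it ranged from -1.15 to -0.85 as single libraries were left out. The adjusted p depended on the processing. Over the alternatives (DESeq2, edgeR's likelihood ratio test, other filters and scalings, left-out libraries) its smallest value was 0.00104 for Ifi27 and 0.00705 for Ttr, described below. Its largest value over the same alternatives was 0.9996 for both genes. The smallest of many fits is not a test of its own.

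The promoter of Ifi27 is shown because interferon-stimulated genes are bound by their activators at the interferon-stimulated response element (ISRE). It is the RefSeq window of 250 bases before to 50 after the start of the gene in build GRCr8, at chr6:128355062-128355361 on the + strand. Capitals mark matches, on either strand, to GAAA followed by 2 bases of any kind and GAAA again.
Ifi27 promoter: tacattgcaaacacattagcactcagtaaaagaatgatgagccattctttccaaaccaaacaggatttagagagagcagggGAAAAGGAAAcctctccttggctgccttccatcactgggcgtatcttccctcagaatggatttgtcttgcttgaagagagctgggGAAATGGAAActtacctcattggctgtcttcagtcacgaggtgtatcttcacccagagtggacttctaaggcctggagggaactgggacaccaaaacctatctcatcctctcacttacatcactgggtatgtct
The window holds 2 matches, whose first bases lie at -169 and -84 from the start of the gene. Of 33469 rat promoter windows of the same length, 1312 (3.92%) hold at least 1 match. A match to these letters does not show that a factor binds there.

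Other interferon genes lay on both sides of 0. Of 16 tested genes of an interferon response list, 1 was lower (Ifi27) and 1 higher, where 2.28% of all genes were lower and 2.34% higher. The median log2 fold change was 0.00 against -0.01 for all genes. The higher gene was Stat2, which carries the interferon signal to the ISRE, at 0.22 ± 0.09. Isg15, a ubiquitin-like modifier, had a log2 fold change of -0.52 ± 0.27 and Mx1, an antiviral GTPase, one of 0.42 ± 0.27, and neither met the criterion.

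Hsp90aa1, the inducible cytosolic chaperone HSP90 alpha, headed the higher genes after Ttr. It was measured at 36.5, 29.6, 21.6 and 26.9 CPM in FID replicates 1 to 4 and 14.7, 19.5, 20.4 and 16.8 CPM in IS replicates 1 to 4, so that each FID value lay above each IS value, with FID replicate 3 and IS replicate 3 the closest. The log2 fold change was 0.68 ± 0.16 (SE), or 1.603-fold (edgeR adjusted p = 0.786). The other 11 heat shock and chaperone genes tested did not meet the criterion, among them the constitutive paralog Hsp90ab1 at -0.03 ± 0.06 and Hspa8 at 0.11 ± 0.09, and reads shared with copies of Hsp90aa1 could have been split by the counting.

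Tacr3, the neurokinin B receptor, was measured at 11.5, 10.6, 11.1 and 10.2 CPM in FID replicates 1 to 4 and 6.62, 7.47, 7.87 and 7.07 CPM in IS replicates 1 to 4. The groups were well apart, with no FID value under 10.2 CPM and no IS value over 7.87 CPM, and the log2 fold change of 0.58 ± 0.12 stayed between 0.54 and 0.63 as single libraries were left out. Htr1b, the presynaptic serotonin 1B receptor, was measured at 17.01, 18.1, 20.1 and 16.2 CPM in FID replicates 1 to 4 and 7.996, 13.8, 13.02 and 12.7 CPM in IS replicates 1 to 4. Here IS replicate 1 was the lowest of the IS group, and the log2 fold change of 0.60 ± 0.16 was 0.44 at its lowest when a library was left out.

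The other genes of the 12 with the largest positive log2 fold change under the same limits, clone names again left out, were Ust, a sulfotransferase of chondroitin and dermatan sulfate, at 0.63 ± 0.17, Amer1, a regulator of Wnt signalling, at 0.60 ± 0.20, and Alkbh8, an iron-dependent dioxygenase that modifies transfer RNA, at 0.56 ± 0.14. Csgalnact2, which starts chondroitin sulfate chains, was at 0.47 ± 0.15, Reps2, an adaptor of endocytosis, at 0.45 ± 0.14 and Plcxd3 at 0.51 ± 0.20. Epm2a, the glycogen phosphatase laforin, stood at 0.48 ± 0.20 and Coch, an extracellular matrix protein, at 0.46 ± 0.18. Of these 12 genes, 9 met the criterion with each library left out. Plcxd3 lost it without FID replicate 2, Epm2a without IS replicate 1, FID replicate 3 or FID replicate 4, and Coch without IS replicate 3 or FID replicate 2. IS replicate 1 was the lowest of the 8 libraries in 9 of the 12.

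The 12 genes with the largest negative log2 fold change by the same rule all met the criterion with each library left out. Their choice as genes without overlap and with large differences favours this. After Ifi27 came Htra3, a secreted serine protease, at -0.57 ± 0.16 and Cyp4f6, a fatty acid hydroxylase, at -0.54 ± 0.16. Aadat, the kynurenine aminotransferase II that makes kynurenic acid, was measured at 6.22, 6.26, 7.39 and 6.12 CPM in FID replicates 1 to 4 and 8.62, 7.61, 11.8 and 9.58 CPM in IS replicates 1 to 4. Its groups were narrowly apart, FID replicate 3 lying just under IS replicate 2, and its log2 fold change was -0.53 ± 0.16. Neu1, the lysosomal sialidase, was measured at 17.8, 17.8, 19.4 and 19.8 CPM in FID replicates 1 to 4 and 27.9, 25.6, 24.1 and 21.96 CPM in IS replicates 1 to 4. Its FID values lay close together and all under the IS values, with a log2 fold change of -0.41 ± 0.10.

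Among the rest, Arhgef15, an exchange factor for small GTPases, was at -0.49 ± 0.17, and Piezo1, a mechanically gated cation channel, at -0.44 ± 0.15. Fpgs, which retains folate in cells by adding glutamates, was at -0.46 ± 0.15, and Fzd2, a Wnt receptor, at -0.44 ± 0.14. Arrdc1, an arrestin-related adaptor, was at -0.44 ± 0.13, Apba3, an adaptor that binds the amyloid precursor protein, at -0.41 ± 0.13 and the zinc finger gene Zfp846 at -0.52 ± 0.13. IS replicate 1 was the highest of the 8 libraries in 6 of the 12. Of the 24 genes of both directions, 12 overlap another RefSeq gene, and the strand setting of the counting is not given in the sources used here, so that reads of overlapping genes may be mixed.

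**Figure D1:**
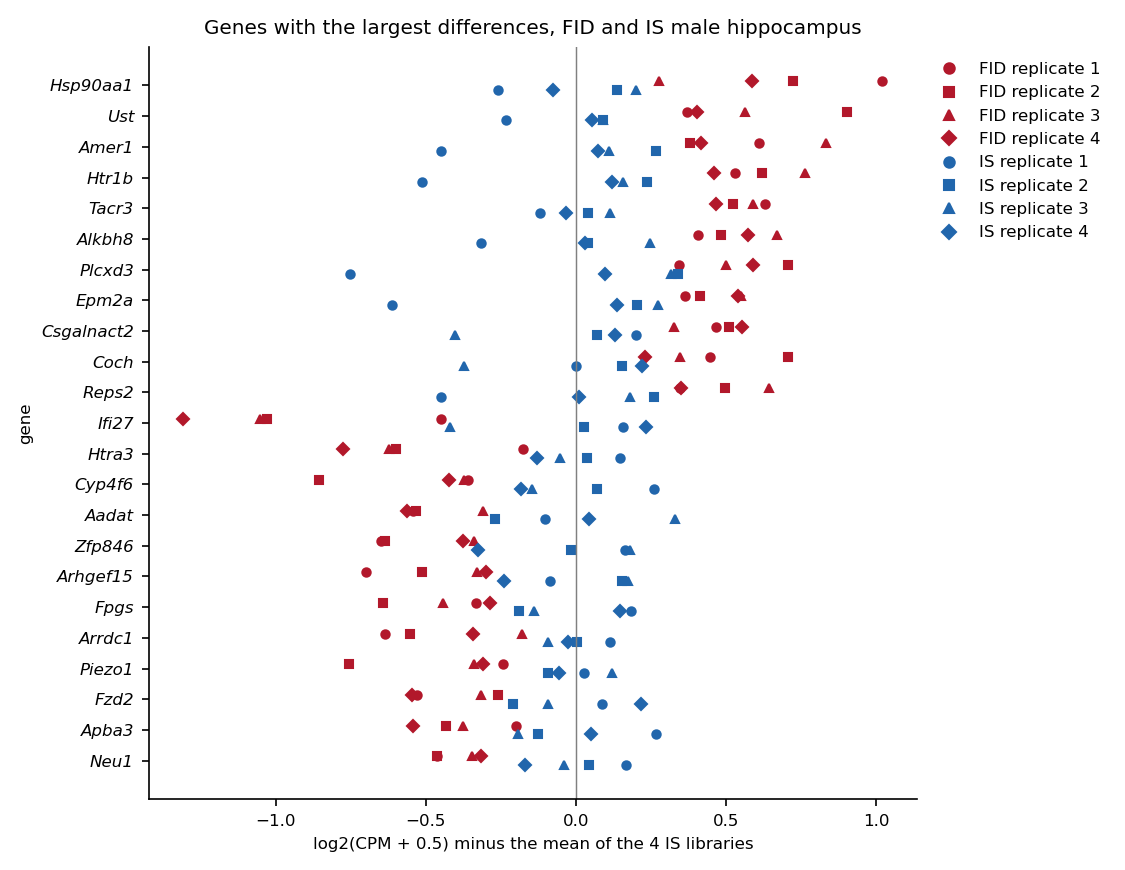
The 23 genes besides Ttr with the largest differences, with a unique gene symbol, at a mean of at least 5 CPM and without overlap between the groups are shown by library, as log2(CPM + 0.5) minus the mean of the 4 IS libraries. Red symbols are the FID and blue symbols the IS libraries, and IS replicate 1 (blue circles) is the leftmost point in most of the higher genes, from Hsp90aa1 to Reps2.

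Ttr, the transthyretin gene whose product is secreted in bulk by the epithelium of the choroid plexus, had the largest log2 fold change of the named genes, 5.802 ± 1.55. It was measured at 5.95, 13.9, 4.11 and 349.6 CPM in FID replicates 1 to 4 and 1.62, 1.72, 2.42 and 0.884 CPM in IS replicates 1 to 4. FID replicate 4 was 25.2 times the next highest library, and the remaining FID libraries, at 35 to 133 counts, were also above the IS libraries, at 6 to 16 counts. Without FID replicate 4 the log2 fold change was 2.28, and the gene still met the criterion.

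The choroid plexus list of 19 markers summed to 139, 156, 126 and 687 CPM in FID replicates 1 to 4 and to 126, 122, 144 and 163 CPM in IS replicates 1 to 4. Without FID replicate 4 the groups overlapped. Clic6, an intracellular chloride channel protein, was measured at 15.1 CPM in FID replicate 4 and at no more than 0.834 CPM elsewhere. Kl, the anti-ageing hormone and co-receptor klotho, was at 13.2 CPM against at most 1.11 CPM, and Folr1, the folate receptor that carries folate into cerebrospinal fluid, at 5.40 CPM against at most 0.968 CPM. F5, coagulation factor V, was at 17.4 CPM against at most 0.522 CPM.

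Not every marker of the list followed. Otx2, a transcription factor of the choroid plexus, had 0 counts in all 8 libraries, and Col9a3 and Calml4 in FID replicate 4, at 16.9 and 8.28 CPM, lay below the highest of the other libraries. Enpp2, the enzyme autotaxin, which oligodendrocytes also express, was at 202 CPM in FID replicate 4 and at 87.5 to 122.8 CPM elsewhere. Of the 19 markers, 13 were not tested because too few libraries held them, so that the called count of the list was 1 of 6 (Ttr), with a median log2 fold change of 0.36 with FID replicate 4 and -0.04 without it.

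FID replicate 4 held 19 genes at 5 CPM or more that exceeded the highest other library by over 2 times, against 0 to 5 such genes in each of the other libraries. Ttr and 10 more of them were on the list. Others were Mfrp and Cldn2, a claudin of leaky epithelia, at 16.0 and 10.3 CPM against at most 1.24 and 0.589 CPM. A list of ependymal markers summed to 33.1 and 32.0 CPM in FID replicates 1 and 4 and to 16.7 to 25.5 CPM in the other libraries, and a list of meningeal fibroblast markers to 106 CPM in FID replicate 4 and 69.02 to 107 CPM elsewhere, with overlapping groups in both.

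**Figure D2:**
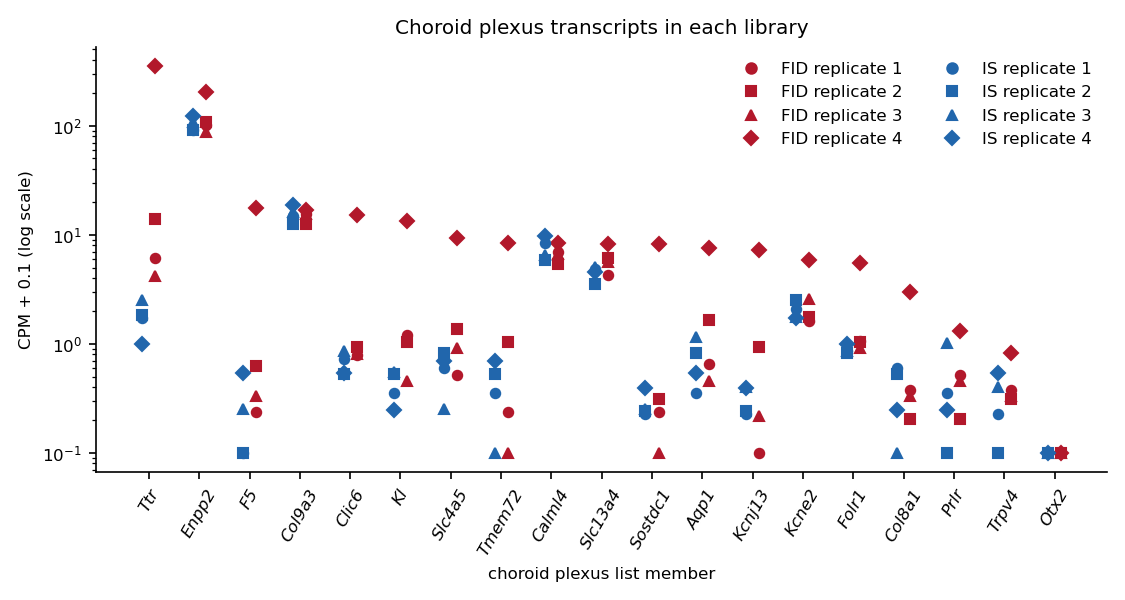
The 19 choroid plexus markers are plotted by library as CPM + 0.1 on a log scale, ordered by their level in FID replicate 4. That library lies over 2 times above the highest of the others in 12 markers, among them Ttr, F5, Kl and Col8a1, while Col9a3 and Calml4 do not separate it and Otx2 is at 0 throughout.

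Genes of iron handling lay on both sides of 0. Of 21 tested genes for iron transport and storage, 1 was higher (4.62% of all genes met the criterion) and 0 lower, with a median log2 fold change of -0.01. The higher gene was Tfrc, the transferrin receptor, at 182, 207, 179.6 and 221 CPM in FID replicates 1 to 4 and 161, 171, 199.9 and 151 CPM in IS replicates 1 to 4. IS replicate 3 lay within the FID values, the log2 fold change was 0.21 ± 0.09 (exact permutation p = 0.114), and the criterion was lost in 5 of the 8 fits with a library left out.

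Ireb2, which encodes iron regulatory protein 2, was measured at 53.1, 51.6, 54.6 and 51.1 CPM in FID replicates 1 to 4 and 34.98, 48.7, 55.5 and 51.1 CPM in IS replicates 1 to 4, with overlapping groups and a log2 fold change of 0.15 ± 0.12. Fth1, the ferritin heavy chain, was at -0.01 ± 0.08 and Slc40a1, the iron exporter ferroportin, at -0.29 ± 0.32 with at most 2.01 CPM in any library. Of 24 genes of heme and iron-sulfur cluster synthesis, 1 was higher (2.34% of all genes were) and 0 were lower. The list had 18 negative and 6 positive values, where 47.3% of all genes were positive.

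Enzymes that need iron to demethylate histones, DNA or RNA showed no gene at the criterion among 21 tested. Their median was 0.06, and the largest value was that of Kdm7a, a histone demethylase, at 0.38 ± 0.20. Of 11 genes that write, read or recruit histone H3 lysine 9 methylation, Cbx5 (HP1 alpha) was higher at 0.31 ± 0.12 and Cbx1 (HP1 beta) lower at -0.30 ± 0.11. Of all genes, 2.34% were higher and 2.28% lower. Cbx5 lay at 38.3, 38.8, 38.6 and 38.03 CPM in FID replicates 1 to 4 and 24.5, 32.3, 38.9 and 28.9 CPM in IS replicates 1 to 4, where IS replicate 3 was above all FID values.

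Ribosomal protein genes leaned lower in FID. Of 77 tested, 11 were lower (2.28% of all genes were) and 1 higher, 72 log2 fold changes were negative, and the median was -0.16. The mean level of the list, as log2(CPM + 0.5) minus the mean of the IS libraries, was -0.11, -0.10, -0.19 and -0.31 in FID replicates 1 to 4 and 0.26, -0.04, -0.20 and -0.02 in IS replicates 1 to 4. IS replicate 1 stood above all others and IS replicate 3 lay among the FID libraries. Without IS replicate 1, 3 genes were lower and 2 higher, and the median was -0.08. Without FID replicate 4, 2 were lower and 1 higher.

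Rpl22l1, a paralog of the ribosomal protein gene Rpl22, was lower with each library left out, at 28.1, 29.4, 23.5 and 29.03 CPM in FID replicates 1 to 4 and 39.2, 32.02, 30.3 and 34.6 CPM in IS replicates 1 to 4 and a log2 fold change of -0.31 ± 0.11. Rpl12, a protein of the large subunit, was the 1 higher gene, at 30.7, 32.96, 31.3 and 28.7 CPM in FID replicates 1 to 4 and 25.6, 23.7, 21.5 and 25.9 CPM in IS replicates 1 to 4. All FID values of Rpl12 were above all IS values, and its log2 fold change was 0.35 ± 0.09. Rps9 was measured at 0.830, 1.46, 8.68 and 0.840 CPM in FID replicates 1 to 4 and 11.2, 8.62, 23.004 and 15.9 CPM in IS replicates 1 to 4, with FID replicate 3 among the IS values, and its log2 fold change of -2.28 ± 0.56 became -3.75 ± 0.41 without that library (edgeR adjusted p = 0.0201, the 1 gene under 0.05 in that fit). Rps9 overlaps Pirb, and ribosomal protein genes have many near-identical copies between which reads can be split, so these single values are uncertain.

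**Figure D3:**
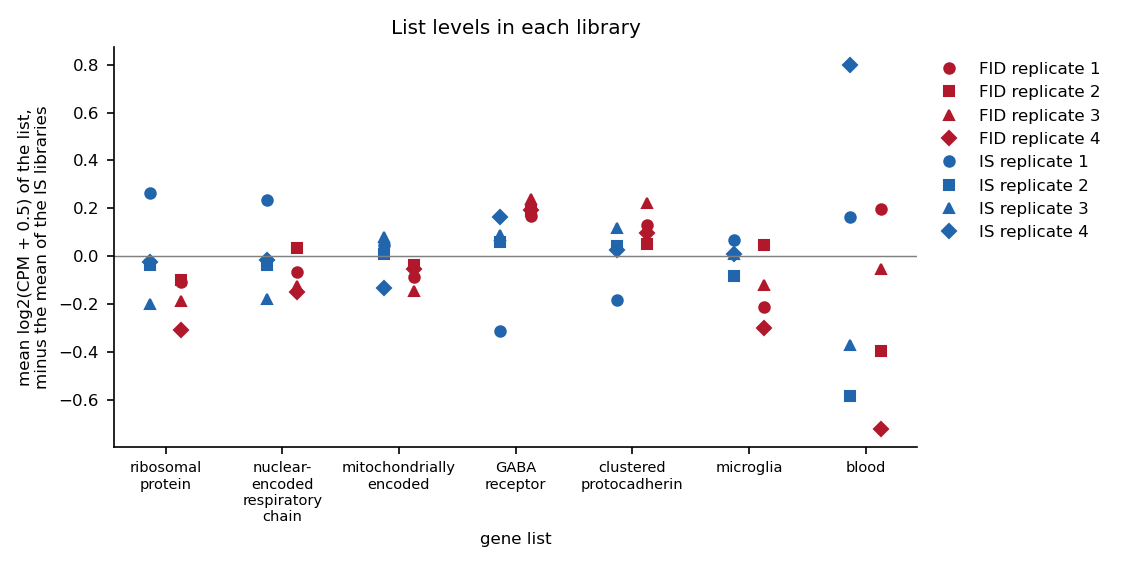
Mean log2(CPM + 0.5) of 7 gene lists is plotted for each library, minus the mean of the 4 IS libraries. IS replicate 1 (blue circles) is highest for the ribosomal protein and respiratory chain lists and lowest for the GABA receptor and protocadherin lists, and the blood list spans from -0.72 in FID replicate 4 to 0.80 in IS replicate 4.

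Of 87 nuclear-encoded genes of the respiratory chain, assembly factors included, 3 were lower (2.28% of all genes were) and 1 was higher (2.34% of all genes), shares near those of all genes, while 70 values were negative, with a median of -0.10. The lower genes were Cox6a1 of cytochrome c oxidase at -0.24 ± 0.09 and the complex I subunits Ndufb8 and Ndufb7 at -0.24 ± 0.10 and -0.23 ± 0.11. Without IS replicate 1, 0 were lower and the median was -0.01, and without FID replicate 4, 0 were lower and it was -0.07. Ndufaf6, which assembles complex I, was higher with each library left out, at 9.68, 10.5, 10.3 and 9.72 CPM in FID replicates 1 to 4 and 7.996, 7.47, 7.42 and 8.55 CPM in IS replicates 1 to 4 and a log2 fold change of 0.36 ± 0.12.

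Of the 13 mitochondrially encoded genes, 1 was lower (2.28% of all genes were), the complex I subunit Mt-nd4, and the median was -0.08. Mt-nd4 was measured at 333, 329, 303 and 313 CPM in FID replicates 1 to 4 and 417, 427, 429 and 311 CPM in IS replicates 1 to 4. In this gene IS replicate 4 lay within the FID values and the other IS libraries were above them, the log2 fold change was -0.31 ± 0.09, and the criterion held with each library left out. Its neighbour Mt-nd4l was at 0.02 ± 0.09.

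Of 31 tested receptors for monoamines and acetylcholine, 4 were higher (2.34% of all genes were) and 0 lower, 18 values were positive, and the median was 0.05. Besides Htr1b these were Htr2c, the serotonin 2C receptor, Chrna7, the alpha 7 nicotinic receptor, and Chrm2, a muscarinic receptor that inhibits transmitter release. Htr2c was measured at 99.999, 151, 126 and 137 CPM in FID replicates 1 to 4 and 114, 99.5, 84.1 and 97.7 CPM in IS replicates 1 to 4, and FID replicate 1 lay among the IS libraries. Its log2 fold change was 0.38 ± 0.12 and met the criterion with each library left out.

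Chrna7 was measured at 60.9, 71.6, 73.3 and 62.5 CPM in FID replicates 1 to 4 and 43.2, 58.7, 59.2 and 60.3 CPM in IS replicates 1 to 4, without overlap, and its log2 fold change of 0.28 ± 0.11 lost the criterion without IS replicate 1, FID replicate 2 or FID replicate 3. Chrm2 was at 0.51 ± 0.23 and lost it in 5 of the 8 fits with a library left out. Without IS replicate 1 the list had 2 higher genes and 1 lower, and its median was 0.01.

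Of 14 GABA receptor subunits, 2 were higher (2.34% of all genes were) and 0 lower. Positive values numbered 12 (47.3% of all genes were positive), and the median of 0.17 was the highest among the pathway lists. Among the higher genes, Gabrb1 of the beta 1 subunit was measured at 38.5, 25.1, 46.8 and 49.7 CPM in FID replicates 1 to 4 and 13.9, 26.1, 34.7 and 33.2 CPM in IS replicates 1 to 4. FID replicate 2 lay within the IS values, and the log2 fold change was 0.58 ± 0.25. Without IS replicate 1 the list had 0 genes at the criterion and a median of 0.10.

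Of 23 genes of ionotropic glutamate receptors, auxiliary and trafficking proteins included, 0 were higher and 1 lower (2.28% of all genes were). The lower gene was Grin2c, an NMDA receptor subunit, at -0.24 ± 0.10. Of 8 metabotropic glutamate receptors, 0 were higher and 1 lower, Grm4, at -0.50 ± 0.20. The medians of these lists were 0.01 and 0.08. None of 27 genes of presynaptic release met the criterion, and the median was 0.01.

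Of 23 postsynaptic scaffold and adhesion genes, 1 was higher (2.34% of all genes were) and 2 were lower (2.28% of all genes). The higher one was Ppp1r9a, the spine protein neurabin, at 0.40 ± 0.17, and the lower ones were the scaffolds Dlgap3 and Homer3 at -0.21 ± 0.06 and -0.31 ± 0.11. Homer3 was measured at 74.5, 51.01, 58.7 and 71.9 CPM in FID replicates 1 to 4 and 80.6, 79.8, 80.97 and 74.4 CPM in IS replicates 1 to 4, where FID replicate 1 lay just above IS replicate 4, and it kept the criterion with each library left out. Of 23 kinases and phosphatases of plasticity, 1 was higher (2.34% of all genes were) and 1 lower (2.28% of all genes). Prkcb, protein kinase C beta, was higher at 0.31 ± 0.12 and Ppp1r1a, protein phosphatase inhibitor 1, lower at -0.25 ± 0.10.

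Among ion channels, Scn3a, a sodium channel that is most abundant in early development, was measured at 64.3, 63.9, 77.2 and 63.3 CPM in FID replicates 1 to 4 and 37.1, 46.2, 60.4 and 53.8 CPM in IS replicates 1 to 4. All FID values were above all IS values, and the log2 fold change was 0.45 ± 0.13 and met the criterion with each library left out. It was the 1 higher gene of 27 calcium and sodium channels, of which 0 were lower (2.34% of all genes were higher). Of 58 potassium channels, 2 were higher, Kcnh7 at 0.64 ± 0.22 and the leak channel Kcnk9 at 0.37 ± 0.15, and 1 was lower, Kcnj8 of vascular mural cells, at -0.51 ± 0.23, against 4.62% of all genes at the criterion. Kcnk9 lost the criterion without IS replicate 1, IS replicate 4 or FID replicate 3, and Kcnj8 in 5 of the 8 fits with a library left out.

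Clustered protocadherins, adhesion proteins that give neurons an identity, had 3 higher genes of 29 (2.34% of all genes were higher) and 0 lower, with 21 positive values and a median of 0.11. They were Pcdhga1 at 0.91 ± 0.27, Pcdhb12 at 0.67 ± 0.30 and Pcdhb22 at 0.41 ± 0.16. Without IS replicate 1 the list had 1 higher gene and a median of 0.06. Pcdhb12 lost the criterion in 5 and Pcdhb22 in 4 of the 8 fits with a library left out. Pcdhga1 shares its last exons with the other genes of its cluster, so its reads may be split among them. Of 64 axon guidance genes, 2 were higher (2.34% of all genes were) and 0 lower. The higher ones were Sema3d at 0.62 ± 0.21 and the semaphorin receptor Plxnc1 at 0.29 ± 0.09.

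Markers of glia and vessels differed in single genes, where 2.28% of all genes were lower. Of 10 oligodendrocyte markers 1 was lower, Mbp, myelin basic protein, at 3019, 2749.7, 2546 and 2847 CPM in FID replicates 1 to 4 and 3157, 3086, 3174 and 3571 CPM in IS replicates 1 to 4. No FID value of Mbp reached an IS value, its log2 fold change was -0.22 ± 0.06, and the criterion was lost without IS replicate 4 or FID replicate 3. The median of the oligodendrocyte list was -0.09. Of 10 astrocyte markers 1 was lower, Aldh1l1, a folate enzyme, at -0.23 ± 0.09.

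All 11 microglial markers had negative log2 fold changes and 0 met the criterion, with a median of -0.12 and values from -0.33 (C1qc, a complement component) to -0.01 (Cx3cr1, the fractalkine receptor). They summed to 389, 459.8, 380.2 and 366 CPM in FID replicates 1 to 4 and 466, 424, 437 and 442 CPM in IS replicates 1 to 4, with FID replicate 2 among the IS libraries. Of 9 endothelial markers, 1 was lower (2.28% of all genes were), Cldn5, the claudin of the blood-brain barrier. It was measured at 45.6, 43.1, 45.3 and 41.6 CPM in FID replicates 1 to 4 and 64.97, 47.1, 50.7 and 51.1 CPM in IS replicates 1 to 4. Its log2 fold change of -0.29 ± 0.10 lost the criterion without IS replicate 1. The blood list of globins and other red cell genes summed to 133, 90.7, 108 and 71.4 CPM in FID and 126, 87.7, 91.9 and 197 CPM in IS libraries, with overlapping groups and 0 of 4 at the criterion.

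Markers of hippocampal fields gave a few calls in both directions, where 2.34% of all genes were higher and 2.28% lower. Of 7 dentate markers, Stxbp6, a partner of syntaxin, was higher at 51.6, 56.7, 47.4 and 52.5 CPM in FID replicates 1 to 4 and 35.6, 43.8, 44.6 and 43.9 CPM in IS replicates 1 to 4 with a log2 fold change of 0.31 ± 0.09, and Pdzd2 was higher at 0.37 ± 0.13, while Prox1 was at 0.22 ± 0.15 and Calb1 at 0.00 ± 0.07. Of 7 CA2 and CA3 markers Bok, a member of the Bcl-2 family, was lower at -0.31 ± 0.09 and met the criterion with each library left out, as did Stxbp6. None of 3 CA1, 7 excitatory neuron, 11 interneuron and 5 immature neuron markers met the criterion.

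Immediate early genes, which neurons switch on with activity, had 15 negative and 5 positive values. Of 20 tested, 1 was lower (2.28% of all genes were), Jund, at -0.23 ± 0.10. The mean levels of the immediate early list relative to the IS mean were -0.16, 0.11, -0.34 and -0.06 in FID replicates 1 to 4 and -0.15, -0.17, -0.09 and 0.41 in IS replicates 1 to 4, so that IS replicate 4 was high and the other IS libraries lay within the FID values. Bdnf, brain-derived neurotrophic factor, was measured at 45.4, 49.96, 39.1 and 46.2 CPM in FID replicates 1 to 4 and 43.5, 47.96, 46.01 and 59.1 CPM in IS replicates 1 to 4, with overlapping groups and a log2 fold change of -0.12 ± 0.11. None of 7 neurotrophins and their receptors met the criterion.

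Of 12 genes of amyloid processing and tau, 1 was lower (2.28% of all genes were), the lipid carrier Apoe, at -0.22 ± 0.09. Apoe lost the criterion in 5 of the 8 fits with a library left out. App, the amyloid precursor, was at -0.01 ± 0.05. Bmp3, a bone morphogenetic protein, was higher at 19.8, 28.8, 47.3 and 28.2 CPM in FID replicates 1 to 4 and 16.4, 17.4, 22.1 and 24.6 CPM in IS replicates 1 to 4, with a log2 fold change of 0.63 ± 0.22, which lost the criterion without FID replicate 3, the highest library. Tnks, tankyrase 1, was at 0.22 ± 0.18 and was lowest in IS replicate 1.

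Of 26 actin filament genes, 2 were lower (2.28% of all genes were), Gsn and Arpc1b of the Arp2/3 complex, the latter at -0.38 ± 0.16. Gsn, the severing protein gelsolin, was measured at 104, 98.6, 81.1 and 104 CPM in FID replicates 1 to 4 and 115, 117, 120.3 and 146 CPM in IS replicates 1 to 4. Gsn did not overlap between the groups and had a log2 fold change of -0.36 ± 0.10. Of 10 neuropeptides 1 was lower, Cartpt, against the same share of all genes. It was measured at 2.49, 1.04, 2.58 and 0.360 CPM in FID replicates 1 to 4 and 4.62, 4.02, 3.18 and 2.95 CPM in IS replicates 1 to 4. Its log2 fold change was -1.22 ± 0.40 at a low level. Of 25 genes of mTOR and translation control 1 was lower (2.28% of all genes were), Eef2k, the elongation factor 2 kinase, at -0.29 ± 0.10. Of 6 glucocorticoid response genes 1 was higher (2.34% of all genes were), Nr3c2, the mineralocorticoid receptor, at 0.28 ± 0.12. None of the genes for the circadian clock (16 tested), cholesterol synthesis (17), choline and one-carbon metabolism (20) and the hypoxia response (14) met the criterion, with medians between -0.04 and 0.00.

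Over the 50 lists together, 905 genes were tested and 61 met the criterion (6.74%, against 4.62% of all genes), 27 higher and 34 lower. The lists were chosen with earlier results of these data known, which can raise this share, so the excess is not a result about the lists. Of these 61 genes, 20 met it with each library left out. In 18 lists no gene met it. Of the list genes named here, Kcnk9, Cbx5, Cldn5, Chrna7, Pcdhb12 and Pcdhb22 lost the criterion without IS replicate 1 but not without FID replicate 4. Cbx1, Grin2c, Grm4, Ppp1r9a and Dlgap3 lost it without FID replicate 4 but not without IS replicate 1. Without either one of these libraries it was lost by Kcnj8, Pdzd2, Tfrc, Cox6a1, Ndufb8, Ndufb7, Jund, Gabrb1, Prkcb, Ppp1r1a, Chrm2, Apoe, Arpc1b, Nr3c2 and Stat2.

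**Figure D4:**
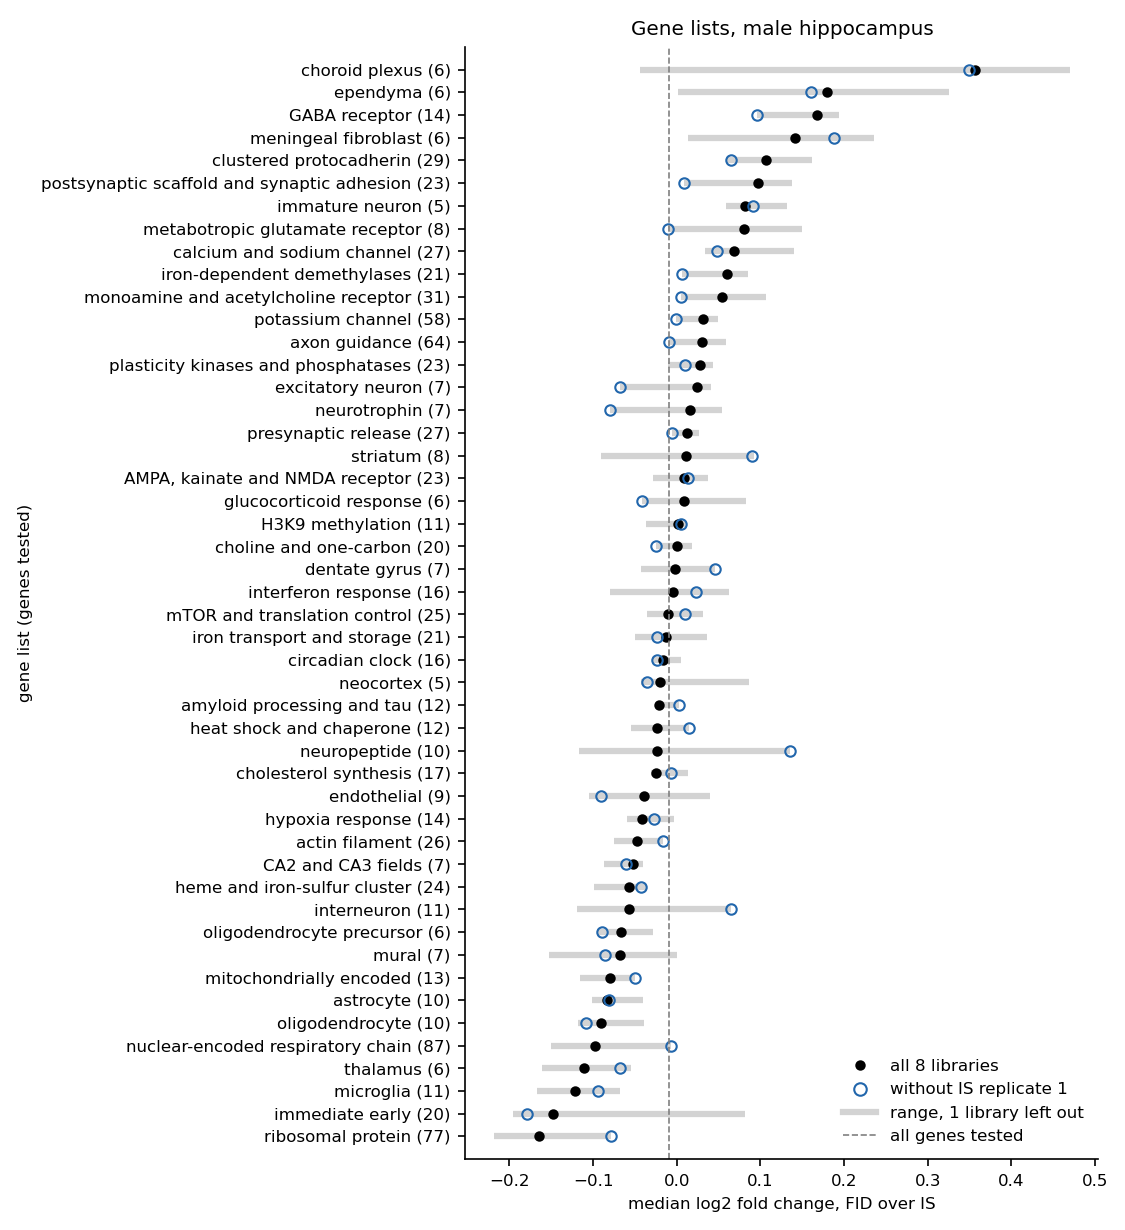
Median log2 fold change of FID over IS is plotted for the 48 lists with at least 5 genes tested, with all 8 libraries (black) and without IS replicate 1 (open blue), and grey bars span the medians with each library left out. The ribosomal protein list is lowest at -0.16 and moves to -0.08 without IS replicate 1, and the bar of the choroid plexus list reaches down to -0.04, its median without FID replicate 4.

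The same iron contrast was read in libraries that share none with this one. In choline-supplemented males (FIDch against ISch), 1133 genes met the criterion (8.12%, of 13958 tested), and in females (FID against IS, batch II), 947 did (6.47%, of 14632 tested). Males and females were sequenced in different batches, so that sex and batch cannot be told apart. Of the 640 genes, 634 were tested in the choline-supplemented males and 158 had the same sign there (24.9%), against 35.9% of all genes in both tables. In both comparisons 14 genes met the criterion with the same sign and 84 with opposite signs. Across 13725 genes, which are not independent replicates, the Spearman correlation of the log2 fold changes was -0.30, and it was -0.21 without IS replicate 1.

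In females 615 of the genes were tested and 331 had the same sign (53.8%), against 49.8% of all genes. The direction of this difference changed with single libraries, since without FID replicate 2 the shares were 42.1% and 47.3%, and without IS replicate 3 they were 48.1% and 48.2%. In that pair of comparisons 24 genes met the criterion with the same sign and 33 with opposite signs, and the Spearman correlation was -0.01 across 13442 genes. No gene met the criterion with the same sign in all 3 comparisons.

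Of the 24 genes with the largest differences, chosen for their values in this comparison, 23 were tested in choline-supplemented males, where 4 kept the sign and 19 had the opposite one. The criterion was met there with the same sign by Tacr3, at 0.53 ± 0.219, and by Ifi27, at -0.83 ± 0.352, and with the opposite sign by Hsp90aa1, at -0.50 ± 0.205, and by Amer1, Csgalnact2 and Neu1. In females Ifi27 was at 0.23 ± 0.0593 and Neu1 at 0.27 ± 0.0932, both opposite to the males, and Tacr3 was at 0.42 ± 0.260.

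The differences between the contrasts were tested themselves. With choline in one fit of 16 male libraries, 2066 of 14314 genes met the criterion for the interaction (14.4%) and 1 (0.00699%) had an adjusted p under 0.05 in edgeR's test, which was none of the 24. With sex and batch, 1157 of 15138 did (7.64%) and 6 (0.0396%) had an adjusted p under 0.05. Ifi27 was the 1 of the 24 genes among these 6, with a difference of -1.18 in log2 fold change, males minus females (edgeR adjusted p = 0.0439). Gsn, named above among the actin filament genes, was also among the 6, at -0.93 (edgeR adjusted p = 0.00486). Its log2 fold change in females was 0.58 ± 0.0685 (edgeR adjusted p = 0.00357), opposite in sign to the males. Between males without and with choline the difference for Ifi27 was -0.16 (edgeR adjusted p = 0.892) and for Hsp90aa1 it was 1.19 (edgeR adjusted p = 0.132).

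The medians of 4 lists were read in the same contrasts. The ribosomal protein list had medians of -0.16, 0.03 and 0.00 in males without choline, males with choline and females, and the nuclear-encoded respiratory chain -0.10, 0.03 and 0.01. For the GABA receptor list these were 0.17, -0.11 and 0.04, and for the microglial list -0.12, -0.05 and 0.00.

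**Figure D5:**
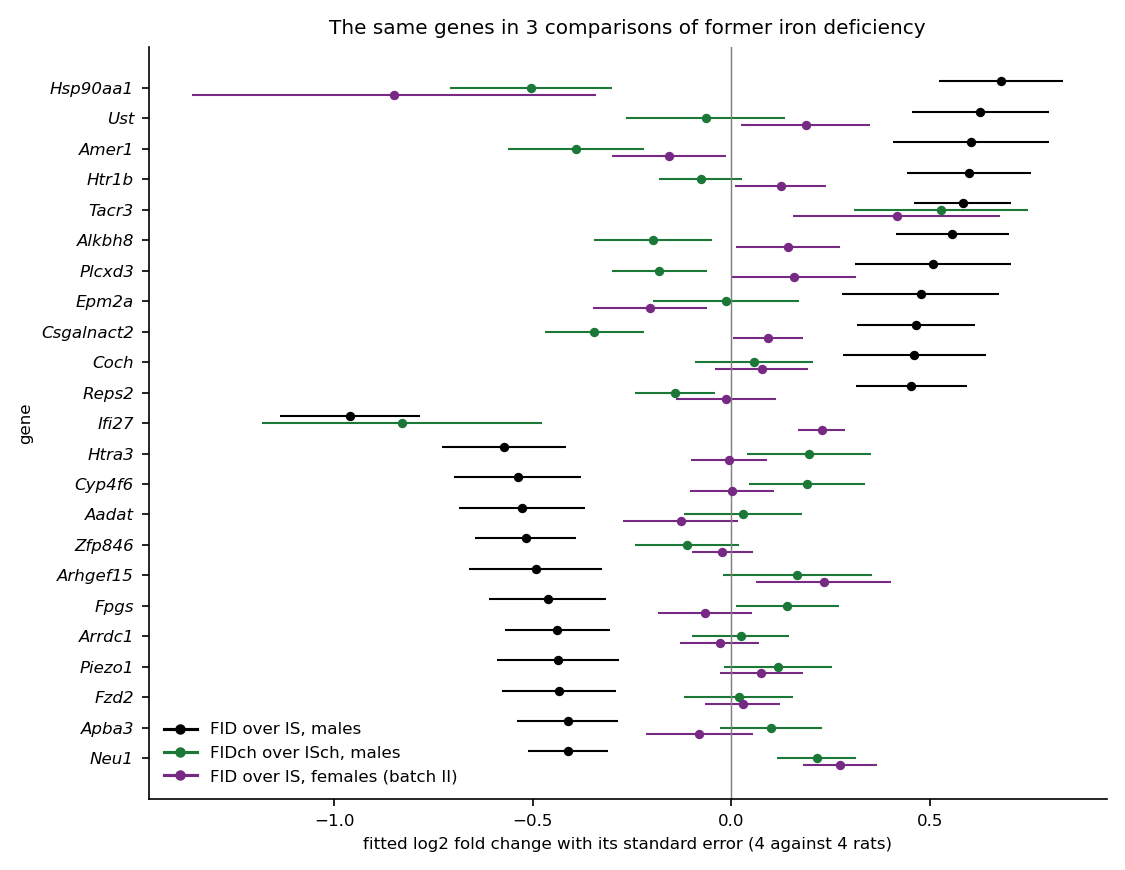
Fitted log2 fold changes of former iron deficiency with their standard errors are plotted for the 23 genes besides Ttr in males without choline (black), males with choline (green) and females of batch II (purple), 4 against 4 rats each. Tacr3 lies above 0 in all 3 contrasts, Ifi27 below 0 in both male contrasts and above 0 in females, and most other green points lie near 0 or opposite to the black ones.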

How the data were processed

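Hippocampal RNA of 32 rats was sequenced, of which the 8 males of the FID and IS groups in batch I are described here. The deposited values are raw counts per gene. Per the labels, the authors used FastQC, Trimmomatic, HISAT2 on Rnor_6.0 and featureCounts of Subread, and the annotation release of the counting and its strand setting are not given in the sources used here. From these counts edgeR 4.0.16 (R 4.3.3; TMM scaling, low genes removed by filterByExpr) fitted quasi-likelihood models, with DESeq2 1.42.0 as an alternative, and the scripts were tested on simulated data. CPM and fold changes came from these fits. Python 3.11.15 and matplotlib 3.10.9 drew the plots.

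Named genes were the 12 higher and 12 lower with the largest log2 fold change (criterion met, mean of at least 5 CPM, no overlap, unique symbol, clone names left out), members of gene lists at the criterion, genes the study had singled out, genes with an adjusted p under 0.05 when a library was left out, and genes highest in FID replicate 4. Some genes of this rule are not reported here. The members and all 50 gene lists were chosen with earlier results of these data known. Of the table's 32883 genes, 2799 share a symbol with another. Symbols of 12241 of 13851 tested genes (88.4%) matched RefSeq GRCr8, used for overlaps and the promoter window, whose coordinates are not those of the files.

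Every library is a separate rat. Counts of replicates differed by more than sampling noise, with 2.56 to 11.0 chi-square units per gene. Limits for a count of 0 (3 counts) cover counting error only. Same-numbered FID and IS libraries correlated in their deviations from the group means at 0.0556, 0.0629, 0.0918 and 0.00611, so the numbers were not taken as pairs. Alternatives were other tests, scalings and filters, a replicate block, and each library left out.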

Additional observations from a re-analysis of the deposited data

Results flagged for a closer look

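In 118 groups of 4 libraries, the highest or lowest library was checked against the other 3 by the gap over the range of the group. A library stood apart in 12 of them, and in 8 of these it was FID replicate 4. Chance gives about 5%, but the share found here cannot be set against it. The choroid plexus markers and the genes that passed adjustment without FID replicate 4 were in the check because of that library. Ttr was at 349.6 CPM there and at 4.11 to 13.9 CPM in the other FID libraries, Kl at 13.2 against 0.352 to 1.11 CPM, Folr1 at 5.40 against 0.821 to 0.968 CPM and Clic6 at 15.1 against 0.692 to 0.834 CPM. The choroid plexus list summed to 687 CPM there and to 126 to 156 CPM in the other FID libraries.

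In 3 more genes FID replicate 4 lay far above the other FID libraries and near the IS libraries. AABR07044362.1 was at 6.36 CPM there and at 0.104 to 0.415 CPM in the other FID libraries, and at 5.997, 8.18, 6.51 and 5.16 CPM in the IS libraries. LOC103690108 was at 3.48 against 0.138 to 0.352 CPM, with 4.62, 2.87, 4.39 and 4.27 CPM in the IS libraries. AABR07044362.6 was at 5.04 CPM there and had 0 counts in the other FID libraries. These 3 genes had an adjusted p under 0.05 in edgeR's test without FID replicate 4, at log2 fold changes of -4.67 ± 0.38 for AABR07044362.1 and -3.79 ± 0.38 for LOC103690108, and with FID libraries all at 0 for AABR07044362.6. Whether near-identical copies share their reads was not tested.

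In FID replicate 3, Rps9 was at 8.68 CPM against 0.830 to 1.46 CPM in the other FID libraries, and Aadat at 7.39 against 6.12 to 6.26 CPM. Cyp4f6 in FID replicate 2 was at 5.74 against 7.92 to 8.30 CPM. Ust in IS replicate 1 was at 4.37 CPM against 5.45 to 5.60 CPM in the other IS libraries.

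Ifi27 differed between the sexes in its response, by -1.18 in log2 fold change, males minus females (edgeR adjusted p = 0.0439). Its log2 fold change was -0.96 ± 0.18 in males and 0.23 ± 0.0593 in females. Gsn differed likewise, by -0.93 (edgeR adjusted p = 0.00486), at -0.36 ± 0.10 in males and 0.58 ± 0.0685 in females. The females were sequenced in another batch, so that sex and batch cannot be told apart.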

How the results depend on the processing

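The count of 640 genes was 1023 with no filter on low counts and 341 without both IS replicate 1 and FID replicate 4, an alternative chosen after seeing the data, and it ran from 392 (without IS replicate 1) to 1236 (without IS replicate 3) as single libraries were left out. It was 0 with the adjusted p in place of the criterion. The count at an adjusted p under 0.05 was 2 by DESeq2, 7 by edgeR's likelihood ratio test, 1 with no filter, 0 to 3 with a library left out and 3 without both libraries. Higher genes were 50.6% of the calls, and 58.5% by DESeq2, 53.8% with RLE size factors and 56.8% with no filter. The difference from the effect of iron deficiency in females (batch II) had 1157 genes and 879 to 1768 with a library left out, the highest without male IS replicate 3. With a library left out, the log2 fold change of App ran from -0.036 to 0.016 and that of Fth1 from -0.072 to 0.056, so that their signs changed. The cause of these shifts was not tested.

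With the replicate block 795 genes met the criterion, 462 of them higher (58.1%), and 555 of the 640 were among them. The libraries share only a number. The alternatives were followed for 36 named genes, and genes named only as list members were not among them. Of the log2 fold changes of these 36 genes, 512 kept their direction and side of the criterion, 16 lost the criterion, 3 gained it and 6 changed sign. Of the list medians 497 moved by less than 1 SD of the list's level between replicates and 3 by more. Leaving out 1 of the 4 libraries of a group shifts its mean by only part of this SD. The count therefore cannot tell whether the medians were stable. The median of the nuclear-encoded respiratory chain went from -0.10 to -0.01 without IS replicate 1. With 6655242 to 9511611 counts a library, genes below the filter, among them 13 of 19 choroid plexus markers, could not be tested.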

Other observations

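The following genes were chosen after their values were seen. RT1-N2, a class I gene of the major histocompatibility complex, met the criterion with each library left out, at 25.3, 28.3, 32.5 and 17.5 CPM in FID replicates 1 to 4 and 6.12, 6.32, 18.5 and 10.6 CPM in IS replicates 1 to 4 and a log2 fold change of 1.34 ± 0.29. Only FID replicate 4 lay within the IS values, under IS replicate 3. RT1-N3, a near copy between which and RT1-N2 reads can be split, was at 0.75 ± 0.18. Aox1, an aldehyde oxidase, was lower at -1.49 ± 0.54, and Echs1, the mitochondrial enoyl-CoA hydratase of fatty acid oxidation, at -0.95 ± 0.25. Echs1 lay at a low level, 2.11 to 3.73 CPM in the FID and 4.42 to 8.02 CPM in the IS libraries. Both also met the criterion with the same sign in choline-supplemented males, where 14 genes did so and 84 met it with opposite signs. B3galt2, a galactosyltransferase, was higher at 0.29 ± 0.07 and met the criterion with the same sign in females.

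The genes highest in FID replicate 4 at 20 CPM or more were, after Ttr, Ace, the angiotensin-converting enzyme, at 22.7 CPM against at most 11.3 CPM elsewhere, Enpp2 at 1.64 times the next library, Igfbp2 at 1.51 times, Col18a1 at 1.44 times and Igf2 at 1.36 times.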
